A study of Mus musculus with 38 samples.

Results

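The interval between 6 h and 12 h of retinoic acid (RA) exposure was examined in E14 mouse embryonic stem cells (mESCs) with 2 assays that each sampled both times. The 4 libraries, of 38 samples in the series, were a bulk library and a SCRB-seq plate at 6 h and at 12 h. Bulk libraries were made from the RNA of the whole population, and SCRB-seq from single cells sorted into the wells of a plate. Both assays count molecules at the 3′ end of transcripts by unique molecular identifiers (UMIs). Genes were kept if they were at least 1.5-fold higher at 12 h in both assays, or at least 1.5-fold lower in both, and had at least 50 UMIs summed over the 2 times in each assay. Of 23452 genes listed in both tables, 5008 passed the minimum and were compared, and 60 were kept as higher and 80 as lower.

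All cells had been held before in 2i/L, a medium with the MEK inhibitor PD0325901, the GSK3 inhibitor CHIR99021 and leukaemia inhibitory factor (LIF). At 0 h they were moved to N2B27 medium with 0.25 µM all-trans RA. The 6 h and 12 h cells therefore shared the loss of both inhibitors, LIF and added insulin, and the response to RA cannot be told apart from the response to that loss. Libraries at 0 h and 24 h are given for context. There was 1 library per assay at 6 h and at 12 h, so no test was run. Nothing in the labels says that the bulk and SCRB-seq cells of a time came from separate cultures, so the 2 assays may not be independent samples. The 95% interval given after a ratio is exact, holds the summed count fixed, and covers counting error only.

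RA is a derivative of vitamin A that enters the nucleus and binds the RA receptors (RARs), which sit on DNA as heterodimers with retinoid X receptors. In the absence of ligand these complexes recruit corepressors, and ligand exchanges them for coactivators. Genes with RA response elements respond directly, among them Cyp26a1, an enzyme that degrades RA, Stra8 and genes of the Hox clusters. In mESCs, naive pluripotency is sustained by LIF and by inhibition of MEK and GSK3, and it is lost gradually after their withdrawal.

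The bulk libraries held 2045175 UMIs at 6 h and 2269894 at 12 h. In SCRB-seq, 335 of 384 wells at 6 h and 285 of 384 at 12 h held more than 2000 UMIs and were taken as cells, with a median of 5069 and 4609 UMIs. The plates use the same 384 well names by design, and no pair of wells of the same name held identical counts. No doublet caller was run. Above 20000 UMIs there were 16 wells at 6 h and 14 at 12 h, which held 29.5% and 23.9% of the UMIs of their plates. The mESC marker Pou5f1 was present at both times, with 626 and 622 bulk UMIs. It was detected in 47.2% and 37.9% of the SCRB-seq cells once each was reduced to 2000 UMIs. The mESC markers Zfp42, Nanog and Esrrb are described below, and of these Esrrb was lower at 12 h in both assays. The 7 listed fibroblast markers summed to 13.2 and 11 CPM (UMIs scaled to a library total of 1000000) in bulk, and none reached the minimum.

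In bulk, 263 genes (5.25% of those compared) were at least 1.5-fold higher at 12 h and 341 (6.81%) were at least 1.5-fold lower. In SCRB-seq these numbers were 452 (9.03%) and 553 (11%), together 20.1% of the genes. The genes kept as higher in both assays, 1.20% of those compared, were 22.8% of the bulk genes and 13.3% of the SCRB-seq genes with that direction. Those kept as lower, 1.60%, were 23.5% and 14.5%. Another 50 genes passed the fold in opposite directions, 32 of them (0.639%) higher in bulk and 18 (0.359%) lower in bulk. Across all compared genes the sign was shared by 57.2%, and Pearson's r of the log2 ratios was 0.22, a description across genes, which are not independent replicates. The closest genes inside the limit were Myh10, with 1.62-fold in bulk and 1.50014-fold in SCRB-seq, and Tbl1xr1, with 1.55-fold and 1.502-fold. Just outside were Carhsp1 with 1.496-fold in bulk and Ctsa with 1.497-fold in SCRB-seq.

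**Figure D1:**
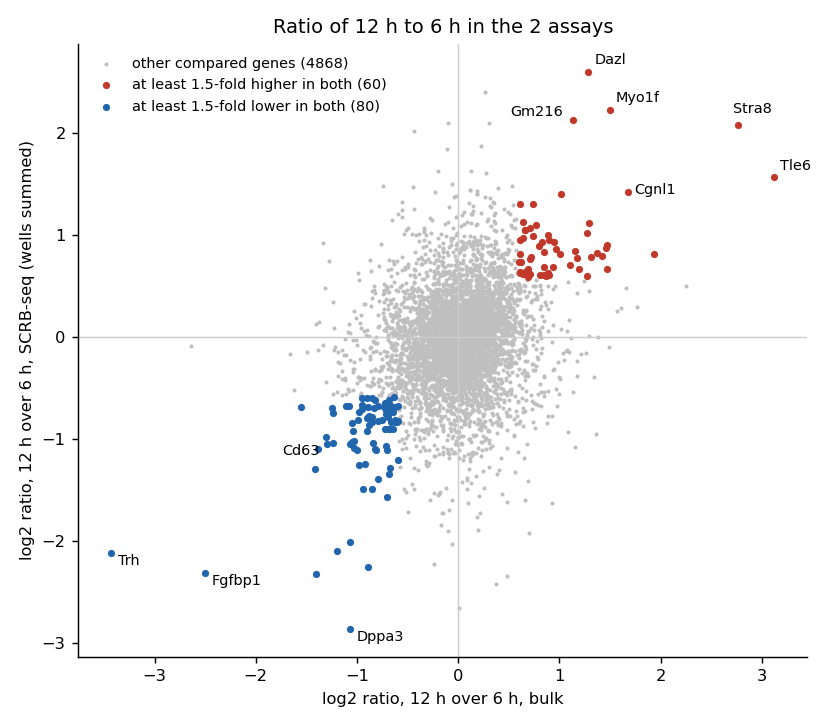
The log2 ratio of the level at 12 h to that at 6 h is plotted for each of the 5008 compared genes, with bulk on the horizontal axis and SCRB-seq (wells summed) on the vertical axis. Red and blue points are the 60 and 80 kept genes, and grey points are the remaining compared genes, most of which lie in a cloud around 0 centred on both axes. Stra8 and Tle6 stand apart at the upper right, and Trh and Fgfbp1 at the lower left.

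The spread between libraries of 1 condition was known only elsewhere in the series. The 2 bulk libraries of 0 h cells differed at least 1.5-fold in 1170 of 4757 genes (24.6%), more than the 604 of 5008 (12.1%) that passed this fold in either direction between 6 h and 12 h. For 41 of the 60 higher and 56 of the 80 lower genes, the bulk difference between 6 h and 12 h was larger than the difference of that gene between the 0 h libraries. Both intervals left out 1 for 51 of the 60 and 67 of the 80. The kept genes were chosen for a difference of at least 1.5-fold on these same counts, which favours both results. The median absolute log2 difference between the 0 h libraries was only 0.326. Neither count was made over all compared genes, so both are descriptions of the kept genes. A kept gene is thus described by its own values below, and the 0 h levels are given beside it. In bulk, fewer cells with a transcript and fewer transcripts per cell cannot be told apart, and the share of cells with a UMI is given from SCRB-seq. At so few UMIs per cell this share also changes with the level in each cell. It is therefore a share of detection and does not separate the 2 either. For these shares every cell was reduced at random to 2000 UMIs, and intervals are exact (Clopper-Pearson, 95%).

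Stra8 (stimulated by retinoic acid 8, chr6:34920163-34939344 in GRCm38), a regulator of meiotic entry in germ cells, was the only listed RA target that was kept. It had 78 bulk UMIs at 6 h and 590 at 12 h, that is 38.1 and 260 CPM, a ratio of 6.82 (5.37 to 8.75). The 0 h libraries held 48 and 12 UMIs (21 and 5.22 CPM) and the 24 h library 1161 (578 CPM). In SCRB-seq the summed UMIs were 9 at 0 h, 49 at 6 h, 156 at 12 h and 376 at 24 h, and the ratio of 12 h to 6 h was 4.21 (3.04 to 5.93). The 12 h library was above both 0 h libraries and the 6 h library in bulk, and above the earlier plates in SCRB-seq.

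At 2000 UMIs per cell, Stra8 was detected in 10 of 335 cells at 6 h, 2.99% (1.44 to 5.42), and in 48 of 285 cells at 12 h, 16.8% (12.7 to 21.7). It was seen in 2 of 282 cells at 0 h (0.709%) and in 29.3% at 24 h. Without thinning the shares at 6 h and 12 h were 10.1% and 29.1%. The cells with a UMI held on average 1.20 UMIs of Stra8 at 6 h and 1.15 at 12 h, and the Fano factor (variance over mean) was 1.3 and 1.1. At 12 h, 42 cells held 1 UMI, 5 held 2 and 1 held 3 or more. After thinning, the larger count thus lay in more cells with a UMI and not in more UMIs per such cell. Thinning to 2000 UMIs keeps the mean in such cells near 1 at these levels, so it could show little change. Without thinning, the cells with a UMI held more UMIs of Stra8 on average at 12 h than at 6 h. With so few UMIs per cell, a small rise in many cells and a large rise in some cells cannot be told apart. The top well held 6.12% of the Stra8 UMIs at 6 h and 5.77% at 12 h.

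SMART-seq2, which reads full-length transcripts of sorted single cells, was available at 0 h (82 cells), 12 h (86) and 24 h (89), and not at 6 h. Its values are RPKM, scaled here so that every cell has the median 0 h total. Stra8 was above 1 in 65.9% of the cells at 0 h, 97.7% at 12 h and 100% at 24 h, with medians of 29.5, 238 and 547. By 12 h nearly every cell of that assay had the transcript. Tle6 went from 40.2% to 86% and 95.5% of the cells over the same times. Of the kept genes that were higher at 12 h, 49 of 59 listed there had a higher SMART-seq2 mean at 12 h than at 0 h (83.1%), beside 66.7% of all 4950 compared genes that are listed. Of the lower genes, 50 of 79 had a lower mean (63.3%), beside 33.3% of all.

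**Figure D2:**
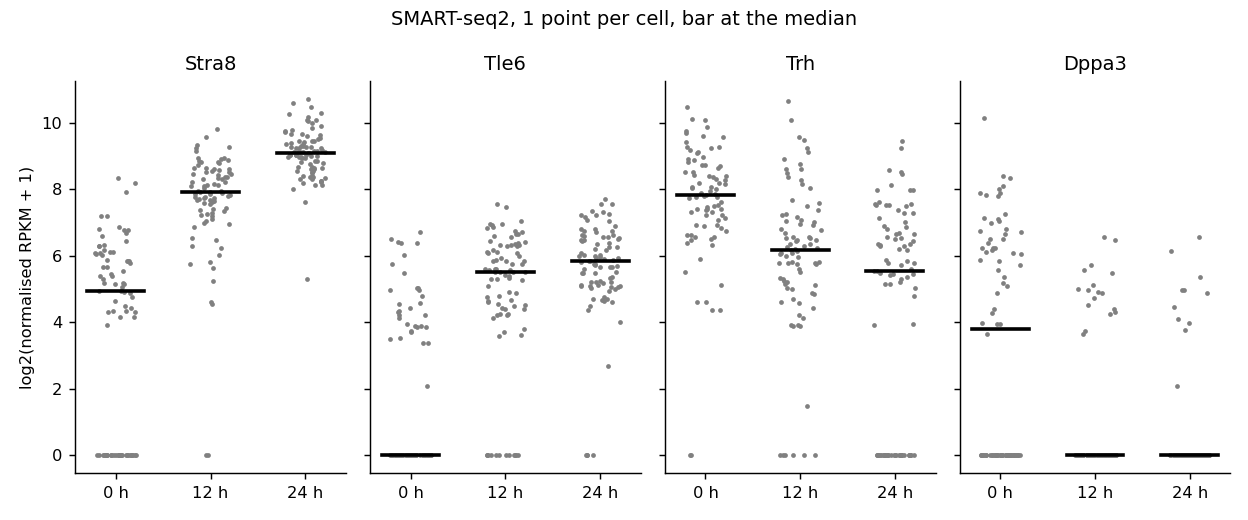
Each point is 1 SMART-seq2 cell at 0 h, 12 h or 24 h, and the vertical axis is log2 of the normalised RPKM plus 1, with a bar at the median. Stra8 moves up in most cells, from a median of 29.5 to 238 and 547 in normalised RPKM, Tle6 gains cells above 0, and Dppa3 loses them, from 51.2% of cells above 1 at 0 h to 19.8% and 12.4%. Trh moves down, from a median of 228 to 71.7 and 45.8.

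The promoters of 3 genes are printed: Stra8, the RA target that was kept, Cyp26a1, the RA target best known for a response element close to its start, and Trh, the gene with the largest bulk difference among the lower ones. Sequences are those of RefSeq in GRCm38.p6, from 250 bases before to 50 after an annotated start, on the strand of the gene. That start lies 785 bases inside the RefSeq span of the gene printed above for Stra8, and 70 bases inside the span of Cyp26a1. RARs bind repeats of a hexamer, and capitals mark the hexamers searched on both strands. These were AGGTCA with its variants GGTTCA and also GGGTCA. The variant AGTTCA was added after the Cyp26a1 promoter was read.
Stra8 promoter: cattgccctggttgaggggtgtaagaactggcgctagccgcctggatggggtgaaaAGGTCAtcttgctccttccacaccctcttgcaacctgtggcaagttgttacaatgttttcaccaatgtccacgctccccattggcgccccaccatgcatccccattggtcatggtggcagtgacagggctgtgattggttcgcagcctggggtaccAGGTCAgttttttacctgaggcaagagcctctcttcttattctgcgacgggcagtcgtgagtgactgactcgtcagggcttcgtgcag
Cyp26a1 promoter: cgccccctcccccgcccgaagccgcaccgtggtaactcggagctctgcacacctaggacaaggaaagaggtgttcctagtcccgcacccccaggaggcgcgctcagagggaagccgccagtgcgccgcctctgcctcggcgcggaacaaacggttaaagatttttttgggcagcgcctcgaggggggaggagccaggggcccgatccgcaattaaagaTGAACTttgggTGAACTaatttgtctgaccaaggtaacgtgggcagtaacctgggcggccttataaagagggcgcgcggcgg
Trh promoter: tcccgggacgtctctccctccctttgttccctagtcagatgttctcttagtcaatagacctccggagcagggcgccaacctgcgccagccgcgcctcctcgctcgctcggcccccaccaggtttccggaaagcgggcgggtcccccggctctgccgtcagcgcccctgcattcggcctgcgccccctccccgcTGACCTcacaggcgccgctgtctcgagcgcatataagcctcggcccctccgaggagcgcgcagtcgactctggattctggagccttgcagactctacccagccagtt
The Stra8 window (chr6:34920698-34920997, plus strand) held AGGTCA at -194 to -189 and at -38 to -33 from its annotated start. In the Cyp26a1 window (chr19:37697558-37697857, plus strand) AGTTCA stood on the other strand at -32 to -27 and at -21 to -16, a direct repeat with a spacer of 5 bases. The Trh window (chr6:92244601-92244900, minus strand) held AGGTCA once, on the strand opposite to the gene, at -57 to -52. Such hexamers are common: 34.6% of 27025 RefSeq promoters held at least 1 of the first 3, and 0.248% held a pair on the same strand with a spacer of 2 or 5 bases. With AGTTCA added these shares were 43.7% and 0.352%. Among kept genes with a promoter in that table, 11 of 44 higher genes (25%) and 23 of 61 lower genes (37.7%) held 1 of the first 3 hexamers, and none held such a pair. A match describes the letters in this window and is not evidence of binding.

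The list of RA targets had 24 genes, all with an entry in both tables, but only 5 passed the minimum of UMIs, and Stra8 was the only one kept. Cyp26a1 stayed under the minimum with 3 and 12 bulk UMIs at 6 h and 12 h, a ratio of 3.60 (0.973 to 19.9), and 82 at 24 h. Its SCRB-seq counts were 11 and 20, a ratio of 2.40 (1.1 to 5.55), and 0.597% and 1.75% of the cells had a UMI. In SMART-seq2 it was above 1 in 2.44% of cells at 0 h, 51.2% at 12 h and 83.1% at 24 h. Dhrs3, a retinal reductase, had 21 and 55 bulk UMIs (2.36-fold, 1.40 to 4.11) and 66 and 73 SCRB-seq UMIs, a ratio of 1.46 (1.03 to 2.07) that was just short of the limit. Both of its intervals lay above 1.

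Other compared targets differed between assays. Skap2, an adaptor protein, was 1.33-fold higher in bulk and 1.53-fold lower in SCRB-seq. Tbx3, a T-box factor of naive pluripotency, was 1.58-fold lower in bulk with 268 and 188 UMIs, and had a ratio of 0.963 (0.821 to 1.13) in SCRB-seq. The binding protein Crabp2 was under the minimum in SCRB-seq and was not compared, with 61 and 81 bulk UMIs and 17 and 15 in SCRB-seq. The median log2 ratio of the 5 compared targets was 0.74 in bulk and -0.06 in SCRB-seq, beside medians of 0.02 and -0.01 over all compared genes. The SCRB-seq median was above 0, at 0.11, when wells were weighted equally. The summed level of the 24 genes was 351 and 589 CPM in bulk and 450 and 485 in SCRB-seq. Stra8 is part of both sums. Its own rise was most of the bulk difference and was larger than the SCRB-seq difference. Without Stra8 the sum was therefore not higher at 12 h in SCRB-seq, and these sums do not describe a rise of the list as a whole.

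The remaining RA targets had few molecules at these times. Rarb, the RAR gene known to respond to its own ligand, had 4 and 2 bulk UMIs and 1 and 13 in SCRB-seq. Stra6, a membrane transporter for retinol, had 2 and 15 bulk UMIs and 68 at 24 h, but 11 and 0 in SCRB-seq. Of 27 Hox genes none reached the minimum, and their summed bulk level was 16.6, 37.9 and 296 CPM at 6 h, 12 h and 24 h. In SCRB-seq it was 17.9, 29.2 and 142. The Hox level at 12 h was thus well below that at 24 h in both assays. Of the receptors, Rarg had 69 and 64 bulk UMIs and 359 and 206 in SCRB-seq, ratios of 0.836 (0.585 to 1.19) and 0.759 (0.636 to 0.903), after 10 and 12 bulk UMIs at 0 h. Rara had 23 and 27 bulk UMIs and 36 and 24 in SCRB-seq, with both intervals holding 1.

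**Figure D3:**
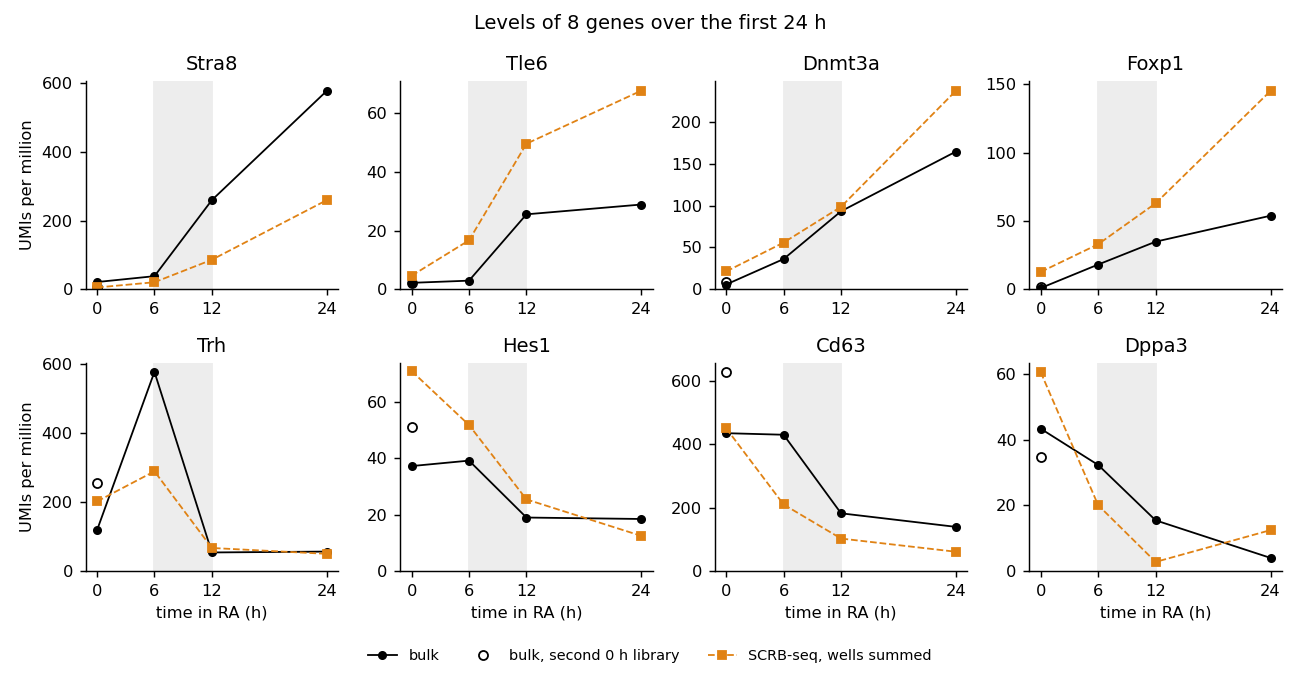
Levels in CPM are plotted against time in RA for 4 kept genes that were higher and 4 that were lower at 12 h, with bulk as black circles (the second 0 h library open) and the summed SCRB-seq wells as orange squares. The shaded band is the interval from 6 h to 12 h. Stra8 climbs through 24 h in both assays, and Trh peaks at 6 h, at 577 CPM in bulk and 289 in SCRB-seq.

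After Stra8, the higher gene with the largest smaller fold of the 2 assays was Tle6 (chr10:81590904-81601185), a Groucho-family corepressor of the oocyte. It had 6 and 58 bulk UMIs at 6 h and 12 h (8.71-fold, 3.77 to 24.7) and 40 and 90 in SCRB-seq (2.97-fold, 2.03 to 4.43). At 0 h both bulk libraries held 5. The share of cells with a UMI was 3.28% (1.65 to 5.80) and 9.82% (6.63 to 13.9), and these intervals did not overlap. Cgnl1, a protein of epithelial cell junctions, had 20 and 71 bulk UMIs (3.20-fold, 1.93 to 5.55) and 44 and 89 in SCRB-seq (2.67-fold, 1.84 to 3.93), with 12 and 5 at 0 h and 134 at 24 h in bulk. Both genes were low at 0 h and stayed high at 24 h.

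Myo1f, an unconventional myosin, had 40 and 126 bulk UMIs (2.84-fold, 1.97 to 4.16) and 43 and 152 in SCRB-seq (4.67-fold, 3.31 to 6.72), and its share of cells was 2.69% and 11.2%. Its 0 h libraries held 68 and 3 bulk UMIs, so that 1 of them was above the 6 h library. Foxp1, a forkhead transcription factor, had 2 and 4 bulk UMIs at 0 h, 37 at 6 h, 79 at 12 h and 108 at 24 h, and 22, 79, 114 and 210 in SCRB-seq. Its ratio of 12 h to 6 h was 1.92 (1.29 to 2.92) in bulk and 1.91 (1.42 to 2.58) in SCRB-seq. Foxp1 was thus already above 0 h at 6 h and was higher at each later time in both assays.

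Dnmt3a, a de novo DNA methyltransferase that is higher in post-implantation epiblast than in naive cells, followed the same order. It had 13 and 19 bulk UMIs at 0 h, 74 at 6 h, 212 at 12 h and 331 at 24 h, and 37, 134, 179 and 344 in SCRB-seq. The ratio of 12 h to 6 h was 2.58 (1.97 to 3.41) and 1.77 (1.40 to 2.23), and the share of cells was 6.27% (3.92 to 9.42) and 12.6% (9.01 to 17.1). Dnmt3b had 65 and 77 bulk UMIs and 279 and 208 in SCRB-seq, and both intervals held 1. The cofactor Dnmt3l was 1.34-fold higher in bulk (1.09 to 1.66) and 1.19-fold in SCRB-seq (1.02 to 1.39), under the limit of 1.5. Of the 9 listed DNA methylation genes 8 were compared and only Dnmt3a was kept.

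The other leading higher genes had no common list. Dusp9, a phosphatase of MAP kinases, had 22 and 60 bulk UMIs (2.46-fold, 1.49 to 4.21) and 70 and 115 in SCRB-seq (2.17-fold, 1.6 to 2.97), after 14 and 3 in bulk and 0 in SCRB-seq at 0 h. Twf2, an actin-binding twinfilin, had 35 and 94 bulk UMIs and 77 and 118 in SCRB-seq, 2.42-fold and 2.03-fold. Basp1, a membrane-attached protein of growth cones, had 47 and 89 bulk UMIs (1.71-fold, 1.19 to 2.48) and 169 and 273 in SCRB-seq (2.14-fold, 1.76 to 2.60), and was seen in 8.36% and 21.1% of the cells. Slc11a1, a metal ion transporter, and Arrdc3, an arrestin-like adaptor, had 2.03-fold and 2.78-fold in bulk and 2.64-fold and 1.87-fold in SCRB-seq. Cenpm, a centromere protein, had 223 and 462 bulk UMIs and 41 and 60 in SCRB-seq, 1.87-fold and 1.93-fold, but its 0 h libraries held 377 and 138. The predicted gene Gm216 had 21 and 51 bulk UMIs and 13 and 43 in SCRB-seq. Atf4, a transcription factor of the amino acid response, had 128 and 229 bulk UMIs (1.61-fold) and 244 and 293 in SCRB-seq (1.59-fold), below or among its 0 h values of 187 and 394 in bulk and 523 in SCRB-seq. It was the only kept gene of its list of 18, of which 9 were compared.

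Genes on the germline list were higher at 12 h wherever they could be compared. Of its 18 genes 4 reached the minimum, Stra8, Dazl, Syce1 and Rhox5, and all 4 were higher at 12 h, beside 1.20% of all compared genes. Dppa3, a factor of germ cells that was placed on the naive pluripotency list instead, was lower at 12 h in both assays. A gene near the minimum passes it partly because it is high at one of the times, so this count is a description, and Stra8 is also on the list of RA targets. The summed level of the 18 genes was 456 and 1012 CPM in bulk and 119 and 300 in SCRB-seq. Stra8 and Rhox5 made up most of the bulk difference, so the sum does not describe the 18 genes alike. At 0 h the sum was 695 and 381 in bulk and 115 in SCRB-seq, and at 24 h it was 1393 and 454. One 0 h bulk library thus lay above the 6 h value, and the 12 h values lay above all 0 h values.

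Dazl, an RNA-binding protein of germ cells, had 68 and 184 bulk UMIs (2.44-fold, 1.84 to 3.27) and 12 and 55 in SCRB-seq (6.06-fold, 3.21 to 12.4). Its 0 h bulk libraries held 403 and 29 UMIs, a wider gap than that between 6 h and 12 h, and SMART-seq2 had it above 1 in 50.0% of cells at 0 h and 46.5% at 12 h. Rhox5, an X-linked homeobox gene, had 628 and 1236 bulk UMIs (1.77-fold, 1.61 to 1.96) and 90 and 130 in SCRB-seq (1.91-fold, 1.45 to 2.53), with 904 and 722 in bulk at 0 h. Syce1, a protein of the synaptonemal complex, had 27 and 56 bulk UMIs and 46 and 53 in SCRB-seq (1.52-fold, 1.01 to 2.31), and its share of cells was 4.18% and 4.21%. Among members under the minimum, Sycp1 had 3 and 8 bulk UMIs and 6 and 29 in SCRB-seq, Dmc1 had 2 and 10 and then 9 and 23, and Sycp3 had 17 and 60 in bulk but 25 and 11 in SCRB-seq. The 2-cell-like list had no compared gene among 12.

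Trh, the precursor of thyrotropin-releasing hormone (chr6:92242061-92244650), had the largest bulk difference among the lower genes. It had 1181 bulk UMIs at 6 h and 122 at 12 h, 577 and 53.7 CPM, which was 10.7-fold lower (8.91 to 13.1). In SCRB-seq the counts were 693 and 121, 4.33-fold lower (3.57 to 5.30). The 0 h libraries held 270 and 583 bulk UMIs and 350 in SCRB-seq, and at 24 h there were 113 and 72. The level at 6 h was thus above every 0 h value in both assays, and the level at 12 h below them in both.

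The share of cells with a Trh UMI was 42.1% (36.7 to 47.6) at 6 h and 9.12% (6.05 to 13.1) at 12 h, after 31.6% at 0 h and before 7.59% at 24 h. Cells with a UMI held on average 1.40 UMIs at 6 h and 1.08 at 12 h. Both the number of cells with a UMI and the UMIs in such cells were therefore lower at 12 h. With so few UMIs per cell, a lower level in every cell would lower both values. They do not separate fewer cells with the transcript from fewer transcripts per cell. In SMART-seq2, Trh was above 1 in 97.6% of cells at 0 h, 93.0% at 12 h and 66.3% at 24 h, with medians of 228, 71.7 and 45.8. In that assay most cells at 12 h still had the transcript, at a lower level.

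Other lower genes had a level at 6 h above that of both 0 h bulk libraries, as Trh did. Fgfbp1, a carrier protein for fibroblast growth factors, had 117 and 23 bulk UMIs (5.65-fold lower, 3.59 to 9.25) and 46 and 7 in SCRB-seq (4.97-fold lower, 2.23 to 13), after 42 and 7 in bulk at 0 h. Its top well held 19.6% of the SCRB-seq UMIs at 6 h. Id1, an inhibitor of basic helix-loop-helix factors that responds to BMP signals, had 36 and 19 bulk UMIs and 104 and 38 in SCRB-seq, 2.10-fold and 2.07-fold lower, with 6 and 2 in bulk and 0 in SCRB-seq at 0 h. Its share of cells was 8.66% and 3.51%. Of 10 listed BMP and Id genes 4 were compared, and all 4 were at least 1.5-fold lower in bulk but only Id1 in SCRB-seq, beside 6.81% and 11% of all compared genes. Id3 had 134 and 59 bulk UMIs and 117 and 84 in SCRB-seq, a ratio of 0.949 (0.709 to 1.27), and Bmp4 was 1.51-fold lower in bulk and 1.39-fold (1.1 to 1.76) in SCRB-seq. Slc29a1, a nucleoside transporter, had 485 and 293 bulk UMIs and 534 and 236 in SCRB-seq, 1.84-fold and 1.71-fold lower, after 234 and 205 in bulk at 0 h.

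Another set of lower genes had its highest bulk level in 1 of the 0 h libraries. Cd63, a tetraspanin of late endosomes, had 881 and 414 bulk UMIs (2.36-fold lower, 2.1 to 2.66) and 504 and 186 in SCRB-seq (2.05-fold lower, 1.73 to 2.44), after 996 and 1447 in bulk at 0 h. The uncharacterised transcript 1700097N02Rik had 191 and 316 bulk UMIs at 0 h, 55 and 29 at 6 h and 12 h and 3 at 24 h. Hes1, a transcriptional repressor known as a target of Notch, had 80 and 43 bulk UMIs and 124 and 46 in SCRB-seq, 2.06-fold and 2.04-fold lower, and was above 1 in 78% and 31.4% of SMART-seq2 cells at 0 h and 12 h. It was the only 1 of 10 listed Notch genes with enough UMIs.

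Dppa3 and Tcl1 were the kept genes of naive pluripotency, of 20 listed and 18 compared, beside 1.60% of all compared genes kept as lower. Dppa3, also called Stella, a factor of germ cells and early embryos, had 66 and 35 bulk UMIs (2.09-fold lower, 1.37 to 3.25) and 48 and 5 in SCRB-seq (7.26-fold lower, 2.90 to 23.4), after 99 and 80 in bulk at 0 h. It was detected in 15 of 335 cells at 6 h (4.48%, 2.53 to 7.28) and in 2 of 285 at 12 h (0.702%, 0.0851 to 2.51). Tcl1, a coactivator of the kinase Akt, had 270 and 151 bulk UMIs (1.98-fold lower, 1.62 to 2.44) and 163 and 70 in SCRB-seq (1.76-fold lower, 1.32 to 2.37).

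Several other genes of that list were lower past the limit in bulk only. Tfcp2l1 had 208 and 106 bulk UMIs (2.18-fold lower) and was 1.34-fold lower in SCRB-seq (1.17 to 1.54), Tdh, a threonine dehydrogenase, was 2.12-fold and 1.42-fold lower (1.28 to 1.58), Klf2 was 1.70-fold and 1.252-fold lower (1.05 to 1.496), and Esrrb was 1.81-fold and 1.26-fold lower (1.1 to 1.45). For these 4 genes both intervals left out 1. The median log2 ratio of the 18 genes was -0.47 in bulk and -0.30 in SCRB-seq. Of these genes 10 were below 0 in both assays, beside 27.8% of all compared genes. The summed level of the 20 listed genes at 6 h and 12 h was 13146 and 11978 CPM in bulk. In SCRB-seq this sum was 7352 and 7430 CPM, so it was not lower at 12 h. After thinning, the median per cell was 13 UMIs of the listed genes at both times. Zfp42 (Rex1) had 1941 and 2032 bulk UMIs, a ratio of 0.943 (0.886 to 1.00), and was seen in 70.1% and 68.8% of cells. Nanog had a ratio of 1.26 (1.1 to 1.44) in bulk and 0.974 (0.900 to 1.05) in SCRB-seq. The naive list was thus split between members that were lower and members that were not.

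The remaining leading lower genes belonged to no common list. Ptpn12, a tyrosine phosphatase, had 36 and 15 bulk UMIs and 143 and 44 in SCRB-seq, 2.66-fold and 2.46-fold lower. Ptrf (cavin-1), a coat protein of caveolae, had 91 and 44 bulk UMIs and 62 and 11 in SCRB-seq, 2.30-fold and 4.26-fold lower. Ddx58, the viral RNA sensor RIG-I, had 99 and 42 bulk UMIs and 127 and 45 in SCRB-seq, 2.62-fold and 2.13-fold lower. Igf2bp2, an mRNA-binding protein, had 62 and 28 bulk UMIs and 326 and 119 in SCRB-seq, and its share of cells was 21.5% (17.2 to 26.3) and 10.5% (7.22 to 14.7). Birc6, a large inhibitor of apoptosis protein, and Kif3a, a kinesin motor subunit, had shares of 29.6% and 16.1% and of 20.9% and 10.5%. For Birc6 the bulk counts of 57 and 42 gave a fold of 1.51 whose interval, 0.994 to 2.30, held 1.

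Shares of cells moved with the levels in most kept genes. At 2000 UMIs per cell the share was larger at 12 h for 58 of the 60 higher genes, with a median difference of 2.99 percentage points, and smaller for 79 of the 80 lower genes, with a median difference of -4.08 points. This follows largely from the choice, since the summed SCRB-seq counts of the same plates selected the genes. With so few UMIs per cell the share follows the sum closely. The direction of the share was not counted over all compared genes, so these 2 counts only describe the kept genes. The intervals of the 2 shares did not overlap for 12 of the higher genes, beside 74 of all 5008 (1.48%) in that direction, and for 17 of the lower genes, beside 87 (1.74%). Among the higher genes the largest differences were those of AI506816, from 34.6% to 51.2%, Stra8, Basp1, the transcript 1700047I17Rik2, from 64.5% to 75.8%, and Gm7325, from 6.27% to 16.1%. The symbol 1700047I17Rik2 has a near-identical copy, so that its counts are uncertain, and SMART-seq2 had it above 1 in 0% of cells at 0 h and 12 h.

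**Figure D4:**
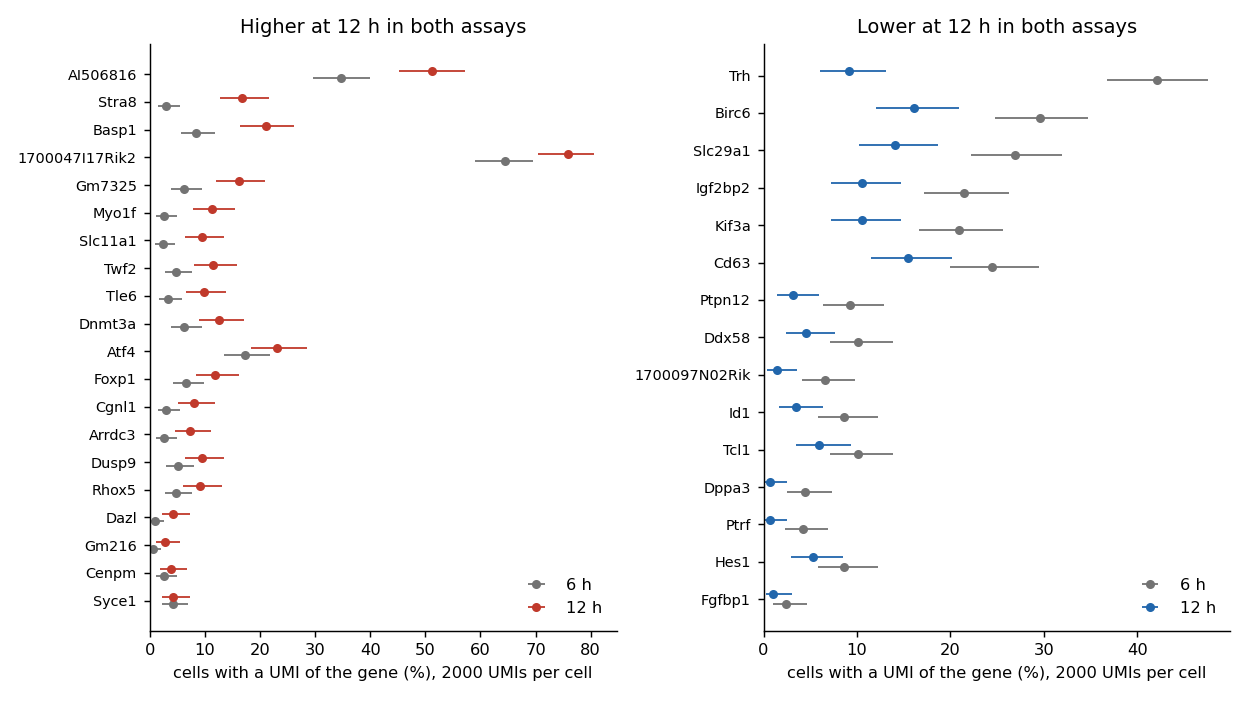
The share of SCRB-seq cells with at least 1 UMI of named kept genes is plotted at 6 h (grey) and 12 h (coloured), in per cent of 335 and 285 cells reduced to 2000 UMIs, with exact 95% intervals. Genes higher at 12 h are on the left and genes lower on the right. Stra8 moves from 2.99% to 16.8% and Trh from 42.1% to 9.12%, while the intervals of many other genes overlap.

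To describe single cells, the UMIs of the kept genes were summed in each cell at 2000 UMIs. Without Stra8, the 59 higher genes had a median of 5 UMIs per cell at 6 h and 8 at 12 h, with 5% to 95% ranges of 1 to 9 and 4 to 13. At 0 h the median was 4 and at 24 h it was 8. Without Trh, the 79 lower genes had a median of 10 at 6 h and 6 at 12 h, with 13 at 0 h and 4 at 24 h. The genes were chosen on the 6 h and 12 h plates, so the difference between these is a description, whereas the 0 h and 24 h plates were not used in the choice. For the higher genes, 33.7% of the 12 h cells exceeded the 95th percentile of the 6 h cells. For the lower genes 27.4% of the 12 h cells fell below the 5th percentile of the 6 h cells.

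**Figure D5:**
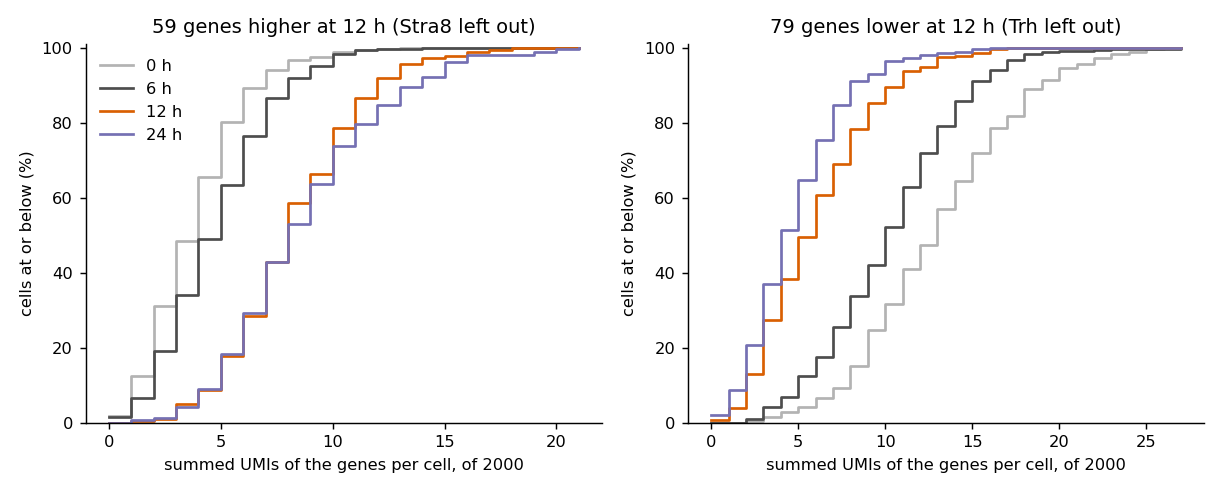
Cumulative distributions over SCRB-seq cells of the summed UMIs of the kept genes are plotted at 0 h, 6 h, 12 h and 24 h, each cell reduced to 2000 UMIs, with the 59 higher genes (Stra8 left out) on the left and the 79 lower genes (Trh left out) on the right. The whole curve is displaced between 6 h and 12 h, from a median of 5 to 8 UMIs on the left and from 10 to 6 on the right. The genes were chosen on the 6 h and 12 h plates, so this displacement follows from the choice.

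No compared gene was kept from most of the other lists. Of 19 compared DNA replication genes and 20 mitosis genes none was kept, and their median log2 ratios were 0.11 and 0.09 in bulk and -0.03 and -0.05 in SCRB-seq. The 17 genes of oxidative phosphorylation had medians of 0.02 and -0.05, the 15 compared glycolysis genes -0.04 and -0.11, and the 7 compared heat shock genes 0.06 and -0.12. Of the signalling lists, the 10 compared genes of ERK feedback had medians of -0.24 in bulk and -0.06 in SCRB-seq, the 9 LIF and STAT3 targets -0.02 and -0.43, and the 4 Nodal genes -0.30 and -0.09, again with none kept. The 9 core pluripotency genes had medians of -0.16 and -0.24 with none kept, and the 8 compared p53 targets -0.42 and 0.12, which differ in sign. The 5 compared genes of retinoid handling had 0.08 and -0.08 with none kept, and the 5 of post-implantation epiblast 0.42 and 0.25, with Dnmt3a kept. Wnt targets, homeobox cofactors of the TALE class and cyclin D with CDK inhibitors had 1, 2 and 3 compared genes and none kept.

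The lineage markers were low. No mesoderm gene of 7 and 2 XEN (extraembryonic endoderm) genes of 18 were compared, and none was kept. The summed level of the XEN genes was 329 and 274 CPM in bulk and 365 and 255 in SCRB-seq. Of the ectoderm list 2 of 12 were compared and none was kept. One of these, Mdk, a growth factor, was 2.14-fold higher in bulk (1.80 to 2.55) with 189 and 449 UMIs, and its SCRB-seq ratio of 1.12 (0.941 to 1.34) held 1.

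The kept genes were also set against their 0 h levels in bulk. At 6 h, 17 of the 60 higher genes (28.3%) were above both 0 h libraries and 25 (41.7%) below both, beside 42.7% and 23.6% of all 5008 compared genes. At 12 h, 49 of them (81.7%) were above both, beside 47% of all. Of the 80 lower genes, 36 (45%) were above both at 6 h and 17 (21.2%) below both, close to the shares of all genes. At 12 h, 55 of them (68.8%) were below both, beside 23.1% of all. The 6 h and 12 h libraries enter the choice and these counts alike, so that a low value at 6 h or a high one at 12 h favours both being kept as higher and the position against 0 h. From 12 h to 24 h, 19 of the higher genes (31.7%) were higher still in both assays and 19 (31.7%) were lower in both, near the 26.8% and 30.3% of all compared genes. Of the lower genes 38 (47.5%) were lower still in both and 23 (28.8%) were higher in both. The 12 h libraries are shared between these counts and the choice.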

How the data were processed

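The authors aligned reads to mouse RefSeq mRNAs (mm10) with BWA 0.7.4 and deposited UMI counts per gene and library or well, without normalization. The SMART-seq2 values were deposited as RPKM from TopHat and Cuffnorm, without depth. In them 0.127% to 0.14% of values at each time were text with a decimal comma, read here as a decimal point. Rn45s and Gkn2 had damaged bulk values and were left out of both count tables after wells were chosen on all their UMIs. Gene names that a spreadsheet had turned into dates in the bulk table had no match in SCRB-seq. Per the labels, RA was 0.25 µM.

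Counts were divided by library totals, wells being summed (CPM). For a fold against 0, the zero count was set to 3. Since each time had 1 library per assay, no test was run, and p-values are not given. Genes named are the RA targets, the 12 in each direction with the largest smaller fold of the 2 assays, the 5 with the largest share difference and kept members of 29 lists. The genes, lists and rule were chosen with earlier results of these data known. Other genes are named for comparison, after their values were seen. The code of the rule was checked on simulated counts with counting error only and with changes larger than 1.5-fold. That simulation held no spread between libraries, so it does not tell how the rule performs on these data. Alternatives used edgeR 4.0.16 (TMM). Python 3.11.15, numpy 2.4.6, scipy 1.17.1 and pandas 2.3.3 were used. Coordinates are those of RefSeq in GRCm38.p6, the build mm10 derives from. SMART-seq2 had no 6 h time, and later times were not used here. A few genes that the rule names are not reported here.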

Additional observations from a re-analysis of the deposited data

How the results depend on the processing

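No paired analysis was possible because each time point had 1 library per assay. With a fold of 2, 9 genes were higher and 14 lower in both assays, and with the lower fold limit tried there were 295 and 315. A minimum of 20 UMIs gave 182 and 201, with a median log2 ratio of 0.26 for 9 RA targets in bulk, and a minimum of 100 gave 24 and 32. Scaling by TMM gave 50 and 92, the median ratio 59 and 81. Weighting wells equally gave 58 and 78, of which 43 and 63 were among the 60 and 80. With only wells of 2000 to 20000 UMIs, chosen after the data were seen, 41 and 64 were found, 35 and 57 of them among the kept genes. The Stra8 ratio ranged from 6.65 to 6.90 in bulk and was 3.86 in SCRB-seq with equal weights and lowest, at 3.50, with those wells. The SCRB-seq median of the RA targets changed sign, from -0.06 to 0.02 with the higher well minimum, 0.11 with equal weights and 0.18 with wells of 2000 to 20000. Counting only cells with at least 2 UMIs left 52 of the 60 higher and 61 of the 80 lower genes with a share difference in their direction. The same plates selected these genes, and the direction was not counted over all compared genes. Among the named genes, the limit of 2 UMIs turned the differences of Dusp9 (-0.194 points), Rhox5 (-0.141) and Tcl1 (0.105). Sorted ectoderm-like and XEN-like library pairs differed 1.5-fold in 23% and 23% of genes. Depth limits the bulk ratios: 29 of the higher and 41 of the lower genes had fewer than 100 bulk UMIs over both times.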

Other observations

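Genes that passed the 1.5-fold limit in opposite directions in the 2 assays numbered 50. With a minimum of 100 UMIs 14 genes did so, and with a fold of 2 only 1 did.

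The following genes are no kept genes and were picked with their values in view. Eda2r, a receptor induced by p53, had 33 and 27 bulk UMIs at 6 h and 12 h, a ratio of 0.737 (0.426 to 1.26), and 32 and 98 in SCRB-seq, a ratio of 4.05 (2.69 to 6.24). Pim1, a kinase induced by LIF, had 24 and 31 bulk UMIs and 162 and 37 in SCRB-seq, 3.31-fold lower there (2.31 to 4.87). Zic2, a zinc finger factor, was 2.00-fold higher in bulk (1.44 to 2.80) with 55 and 122 UMIs, whereas in SCRB-seq it had 161 and 83, 1.47-fold lower (1.12 to 1.94). For Zic2 both intervals left out 1, in opposite directions. Cholesterol synthesis genes, of which 17 of 21 were compared and none kept, had a median log2 ratio of 0.11 in bulk and 0.30 in SCRB-seq.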
